A study of Mus musculus with 4 samples.

Results

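The genes described here are the 7 suppressors of cytokine signaling, Socs1 to Socs7, and Cish, the founding gene of the same family. They were taken by their symbols from the deposited read counts, which list 48897 genes, and all 8 were found. Each of the 8 also passed the filter on low counts that precedes the test. The counts come from 4 RNA-Seq libraries of whole retina from wild-type C57BL/6 mice, of the C57BL/6J substrain by the study's methods, at postnatal day 9. In the anti-miR-124 group, 2 libraries, the left eyes had received 0.6 nmol of miR-124-3p antagomir in 1 μl by intravitreal injection at postnatal day 3, 6 days earlier. An antagomir is a chemically modified antisense oligonucleotide that blocks a microRNA. In the NC group, 2 libraries, the right eyes had received the same amount of a scrambled oligonucleotide. The groups were thus opposite eyes of the injected mice, every retina came from an injected eye, each library held pooled retinas, and the eye side and the oligonucleotide cannot be told apart. The libraries of a group are called biological replicates in the study's methods, each group came from more than 1 litter, and p-values measure the spread between these pools. A left-eye and a right-eye column share a number, which is not stated to mark the same mice. The libraries are written NC-A and anti-A for one such pair and NC-B and anti-B for the other.

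The libraries held 16317239 to 18726963 counts. Levels are given as CPM, the read count of a gene scaled to the size of its library, with library sizes adjusted by the trimmed mean of M-values (TMM). The 8 rod markers, from rhodopsin to the transcription factor Crx, were abundant in all libraries, with a summed level of 10295 and 10664 CPM in the NC group and 10555 and 10993 CPM in the anti-miR-124 group. NC-A stood apart. Its 21 lens markers, mostly crystallins, summed to 20377 CPM, against 39.2 to 60.2 CPM in the other libraries. Anti-B had the highest summed level of microglia markers, at 317 CPM against 115 to 150 CPM elsewhere. Anti-A had the highest summed levels of erythrocyte markers, at 306 CPM against 83.3 to 141 CPM, and of pigment epithelium markers, at 70.5 CPM against 40.7 to 53.6 CPM.

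SOCS proteins are feedback brakes on cytokine receptors. A cytokine activates Janus kinases (JAKs) at its receptor, the JAKs phosphorylate STAT transcription factors, and the STATs induce target genes that include some of the SOCS genes themselves. Each SOCS protein carries an SH2 domain, which binds phosphotyrosine, and a C-terminal SOCS box, which recruits elongin B, elongin C and Cullin 5 to form a ubiquitin ligase. SOCS1 and SOCS3 also block JAK activity directly. In the retina, SOCS3 is known as the brake on STAT3 signaling downstream of the gp130 receptor, which drives the glial response to injury. The family falls into short proteins and proteins with a long N-terminal part. In the GENCODE M21 annotation, the longest coding transcripts of Socs1, Socs2, Socs3 and Cish encode 212, 200, 225 and 257 residues, and those of Socs4, Socs5, Socs6 and Socs7 encode 436, 536, 533 and 579. Cytokine induction is best known for the short members.

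The promoters of 4 members, Cish, Socs1, Socs3 and Socs4, were in the RefSeq table used here (GRCm38.p6, 250 bases before to 50 bases after the annotated start). They were searched on both strands for TTCNNNGAA, the letter pattern bound by STAT dimers, which reads the same on both strands, and for GAAA followed by any 2 bases and another GAAA, the core of the interferon-stimulated response element. No promoter of Socs2, the remaining short member, was available, so it was not searched. The windows that held a match are shown with the matches in capitals and each sequence written 5′ to 3′ on the strand of its gene.
Cish: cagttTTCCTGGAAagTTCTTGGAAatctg
Socs3: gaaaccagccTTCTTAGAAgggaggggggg
Socs1: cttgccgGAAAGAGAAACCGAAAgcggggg

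The Cish window lies at chr9:107296654-107296683 on the plus strand and holds 2 matches to TTCNNNGAA, the first of which begins at the annotated start. The Socs3 window lies at chr11:117969501-117969530 on the minus strand, and its match begins 154 bases before the RefSeq start. That start lies 976 bases inside the range that the deposited table gives Socs3, so the window lies within the deposited gene. The RefSeq start of Socs4 lies 223 bases ahead of its deposited range, and those of Cish and Socs1 coincide with the deposited ends. The Socs1 window lies at chr16:10785597-10785626 on the minus strand, and holds 2 matches to the interferon-response pattern that share 4 bases, the first beginning 83 bases before the start. Over 32851 promoters of this length in the table, 8.3% held TTCNNNGAA and 3.44% held the interferon-response pattern. The Socs4 promoter held neither pattern in this window. A match is a string of letters and does not show that a factor was bound.

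With the deposited gene lengths, the long members had the highest levels in the P9 retina. On the TPM scale, which divides the counts by the gene length before scaling to the library, Socs7 had the highest mean over the 4 libraries at 110, and its libraries ran from 101 to 115. It was followed by Socs5 (mean 56.0, 50.7 to 60.6), Socs4 (mean 34.0, 26.0 to 39.1) and Socs6 (mean 22.8, 21.8 to 24.3). The ranges of these genes did not overlap with each other or with the next gene. SOCS7 is expressed in the nervous system and SOCS6 acts on receptor tyrosine kinases such as KIT, while SOCS4 and SOCS5 have been tied to the EGF receptor. The short members lay below, with Cish at a mean of 7.70 TPM (6.92 to 8.61), Socs2 at 6.77 (6.53 to 7.15), Socs3 at 4.72 (2.52 to 8.38) and Socs1 at 2.50 (1.27 to 3.94). Each of these ranges overlapped the next, so the order of neighbours was not settled. The range of Socs1 lay wholly below those of Socs2 and Cish. Among the 17766 tested genes, the mean TPM of Socs7 exceeded that of 89.6% and the mean of Socs1 that of 17.7%.

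The order of Socs4, Socs6, Cish and Socs2 depended on the lengths used. The deposited table gives Socs4 2154 bases, whereas its longest coding transcript in GENCODE M21 has 6877. With the GENCODE length in place of the deposited one, and the sum of the library unchanged, the mean level of Socs4 was 10.7, below Socs6 at 23.2, Socs2 at 18.9 and Cish at 11.6. Socs7 at 124 and Socs5 at 71.4 stayed the highest. Socs1 has 1340 bases in the table and 2908 in GENCODE, and it stayed the lowest at 1.15. Ratios of CPM between libraries do not involve the length.

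No member had an adjusted p-value under 0.05 for the anti-miR-124 against the NC group by edgeR's quasi-likelihood test, the background over all genes being 0%. By the same test, 1 member, Socs4, had an unadjusted p-value under 0.05 and was higher, against a background of 2.23% for higher and 1.68% for lower genes. DESeq2's Wald test gave 0 members by the adjusted and 0 by the unadjusted p-value. Socs1 and Socs4 were the members whose groups did not overlap, both being higher in the anti-miR-124 group, which was found for 16.5% of all tested genes. Socs1, Socs2, Socs4 and Socs7 were higher in both pairs and none was lower in both, against 22.8% and 24% of all genes. The median log2 fold change of the 8 members was 0.02, and it was 0.0007 over all tested genes.

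**Figure D1:**
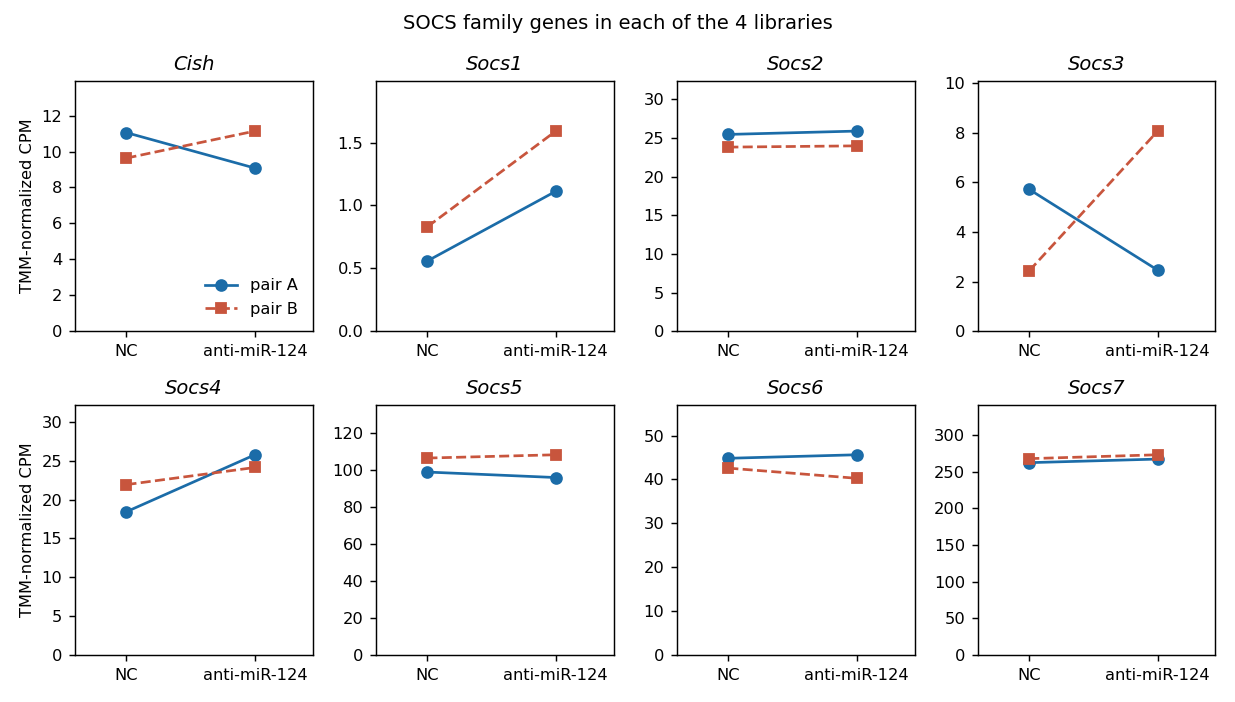
TMM-normalized CPM (vertical axes, from 0) of the 8 SOCS family genes in each library, by group (horizontal axes), with a line joining the libraries that share a number (solid, pair A; dashed, pair B). The anti-miR-124 end of both Socs1 lines is the higher one, the Socs3 lines cross between 2.44 and 8.06 CPM, and the Socs7 lines run between 262 and 273 CPM.

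Socs1, the brake on interferon receptors, lies on chromosome 16 from 10783808 to 10785536 and is encoded within 1 exon. It had 9 counts in NC-A, 19 in anti-A, 15 in NC-B and 30 in anti-B, which correspond to 0.559, 1.11, 0.831 and 1.59 CPM. Both anti-miR-124 libraries were above both NC libraries, and the level was 1.99-fold within pair A and 1.92-fold within pair B. The fitted log2 fold change was 0.95 (standard error 0.42, 95% interval -0.06 to 1.95, unadjusted p = 0.0605, adjusted p = 0.989, edgeR), and so it did not pass the test. Without the filter on low counts the unadjusted p-value was 0.0388 (edgeR). With same-numbered libraries treated as pairs it was 0.0673 (edgeR), and with DESeq2's Wald test it was 0.220. Counting error alone was wide at this depth. The exact Poisson interval of 9 counts runs from 4.12 to 17.1, and the exact binomial interval of the log2 ratio was -0.22 to 2.32 in pair A and -0.0015 to 1.94 in pair B. Intervals of single libraries and pairs cover counting error only.

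Socs4 is a candidate gene that the study picked on these libraries, so its direction here is not independent evidence. The study also reports RT-qPCR of candidate genes on separately isolated RNA, with trends like those of its RNA-Seq. Socs4 lies on chromosome 14 from 47277143 to 47291591. Its counts were 297 in NC-A, 440 in anti-A, 396 in NC-B and 455 in anti-B. The groups did not overlap, with 18.4 and 21.9 CPM in the NC libraries and 25.8 and 24.1 CPM in the anti-miR-124 libraries. The fitted log2 fold change was 0.30, a 1.23-fold level (standard error 0.11, 95% interval 0.03 to 0.58, unadjusted p = 0.0339, adjusted p = 0.989, edgeR). The level was 1.40-fold within pair A and 1.10-fold within pair B, and the counting interval of the log2 ratio was 0.27 to 0.70 in pair A and -0.06 to 0.34 in pair B. The lowest value was that of NC-A, which held the lens transcripts. With the replicate block, which treats same-numbered libraries as pairs, the unadjusted p-value was 0.0684 (edgeR), and with DESeq2's Wald test it was 0.100. Without the filter on low counts it was 0.0131 (edgeR). Without NC-A the log2 fold change was 0.19, and without anti-A it was 0.26. Without NC-B it was 0.44, and without anti-B it was 0.36. With the lens genes left out of the fit the value was 0.31, and the part of other lens material in NC-A was not tested. Pigment epithelium markers had the same library order as Socs4, with summed levels of 40.7 CPM in NC-A, 70.5 in anti-A, 49.6 in NC-B and 53.6 in anti-B. Erythrocyte markers were highest in anti-A too, at 306 CPM against 83.3 in NC-A, 141 in NC-B and 86.9 in anti-B. The part of either cell type in the Socs4 values was not tested.

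Socs3 differed most between the pairs. It lies on chromosome 11 from 117966079 to 117970342, and had 92 counts in NC-A, 42 in anti-A, 44 in NC-B and 152 in anti-B. NC-A and anti-B were thus high, at 5.71 and 8.06 CPM, and the others low, at 2.46 and 2.44 CPM, so the groups overlapped. Within pair A the log2 ratio was -1.21 (counting interval -1.78 to -0.67), and within pair B it was 1.71 (1.23 to 2.24). The fitted value over the 4 libraries was a log2 fold change of 0.38 (standard error 0.60, 95% interval -1.07 to 1.83, adjusted p = 0.989, edgeR). The distance between the ratios of the pairs, 2.92 on the log2 scale, was reached by 172 of the 17766 tested genes, or 0.968% of them. Leaving out anti-B gave a log2 fold change of -0.71, leaving out NC-B -0.12, leaving out anti-A 0.99 and leaving out NC-A 1.11, so the direction depended on the libraries kept.

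**Figure D2:**
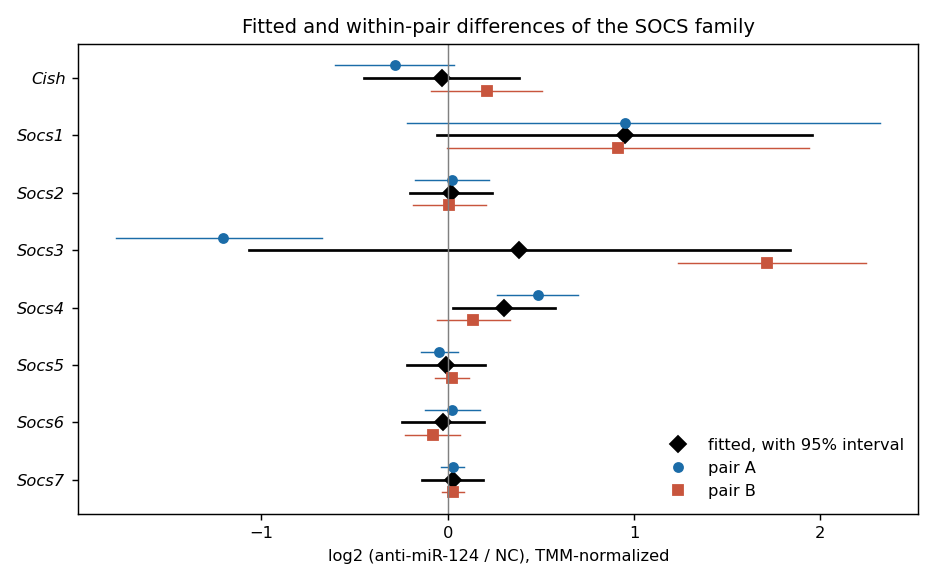
log2 ratio of the anti-miR-124 to the NC group (horizontal axis) for each SOCS family gene, as the fitted value with its 95% interval (black diamond and line) and as the ratio within pair A (circle) and pair B (square) with exact counting intervals (thin lines). The intervals of Socs3 in the pairs lie on opposite sides of 0, and those of Socs2, Socs5, Socs6 and Socs7 are short and cross 0.

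Cish, the STAT5-induced member, had 178 counts in NC-A, 155 in anti-A, 174 in NC-B and 210 in anti-B. It was lower in pair A (log2 ratio -0.28) and higher in pair B (0.21), as was Socs3, but both counting intervals included 0 and the groups overlapped. The fitted log2 fold change was -0.03 (95% interval -0.45 to 0.39). An antisense transcript overlaps Cish in the table, with 8 to 22 counts, and whether the counting used strand is not given in the sources used here.

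The remaining members had narrow intervals around 0. Socs2, which restrains growth hormone signaling, had 410 counts in NC-A, 442 in anti-A, 430 in NC-B and 452 in anti-B, with a log2 fold change of 0.02 (95% interval -0.20 to 0.24). Socs5 had 1594 counts in NC-A, 1639 in anti-A, 1924 in NC-B and 2042 in anti-B, with a log2 fold change of -0.01 (-0.22 to 0.20). Its levels differed more between the pairs than between the groups, at 99.0 and 96.0 CPM in pair A and 107 and 108 CPM in pair B, and its ratio in pair A was negative with TMM (-0.04) and positive with TPM (0.06).

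Socs6 had 722 counts in NC-A, 779 in anti-A, 769 in NC-B and 759 in anti-B, with a log2 fold change of -0.03 (-0.25 to 0.19). Socs7 was the most precisely measured, with 4225 counts in NC-A, 4562 in anti-A, 4836 in NC-B and 5148 in anti-B. At 262 and 268 CPM in the NC group against 267 and 273 CPM in the anti-miR-124 group, its groups overlapped, as did those of Socs2, Socs5 and Socs6. Its log2 fold change was 0.03 (-0.14 to 0.19), a range of 0.911-fold to 1.14-fold. For these genes a change of the size fitted for Socs1 lay outside the interval, although smaller changes could not be told from none.

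The other genes of the pathway were examined through 12 lists, of which 104 genes passed the filter. By the unadjusted p-value of edgeR's test, 22 of the 104 were higher and 0 lower, where the background in either direction was 3.91%. No gene of these lists had an adjusted p-value under 0.05 by this test, and 12 had one by DESeq2's Wald test. Of the 22, 13 belonged to the 14 tested genes of a list of interferon-induced genes.

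Among ligands of gp130, 6 of 9 did not pass the filter. Il6 had 3 counts in anti-A and 0 elsewhere, Lif, which Muller glia release in the injured retina, had 2 to 7 counts in the 3 libraries where it was found, and both were too low to test. Cntf, which was tested, had 45 counts in NC-A, 26 in anti-A, 27 in NC-B and 54 in anti-B. It was thus low in the libraries in which Socs3 was low, and was named after its values were seen. Clcf1 and Ctf1, the tested ligands with the smallest p-values, had log2 fold changes of -0.43 and 0.23 (unadjusted p = 0.295 and 0.699, edgeR).

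Of 6 tested receptors of this group, 1 was higher by the unadjusted p-value. Il6st, the gene of gp130 and another candidate of the study, had 1185 counts in NC-A, 1365 in anti-A, 1285 in NC-B and 1682 in anti-B, with a log2 fold change of 0.23 (standard error 0.08, unadjusted p = 0.0263, adjusted p = 0.989, edgeR). Osmr had a ratio of -0.27 within pair A and of 1.32 within pair B. Among the 5 tested interferon receptor genes, Il10rb had a log2 fold change of 1.06 (unadjusted p = 0.0476, edgeR), with 32 counts in NC-A, 42 in anti-A, 36 in NC-B and 110 in anti-B, while Ifngr2 had 0.13. Receptors that signal through STAT5 gave 0 of 8 past the unadjusted threshold, and Csf2rb and Csf2ra had log2 fold changes of 1.88 and 0.18. Csf2rb had 105 counts in anti-B and 15 in each other library. Csf2ra, also a candidate of the study, had a ratio of -0.11 within pair A and of 0.46 within pair B.

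None of the 4 kinase genes passed the unadjusted threshold. Jak1 had a log2 fold change of 0.06 (95% interval -0.11 to 0.24) and Jak2 of 0.001 (-0.16 to 0.16), and Tyk2 and Jak3 had 0.16 and 0.50 with unadjusted p-values of 0.147 and 0.234 (edgeR). Of the STAT genes, Stat2, which carries the signal of type I interferon receptors, had 425 counts in NC-A, 550 in anti-A, 537 in NC-B and 727 in anti-B, and the groups did not overlap. Its log2 fold change was 0.33 (standard error 0.12, unadjusted p = 0.0249, adjusted p = 0.989, edgeR). Stat3, the transducer of gp130, had 1163 counts in NC-A, 1106 in anti-A, 1158 in NC-B and 2004 in anti-B, and a log2 fold change of 0.33. The Stat3 ratio was -0.16 within pair A but 0.73 within pair B. Both were candidates of the study.

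The interferon-induced genes were higher in both pairs in 14 of 14 tested cases, with a median log2 fold change of 2.79, the pair A median being 2.04 and the pair B median 3.28. The list contains genes that the study picked on these libraries, such as Irf9 and Isg15, and is not independent evidence of its direction. When anti-B was left out, the median was 2.25. Ifit1, an inhibitor of viral translation, and Rsad2, the antiviral enzyme viperin, had log2 fold changes of 5.24 and 2.63. The log2 fold change of Socs1 was smaller than that of each of these genes except Irf1 (0.55), though no difference between genes was tested.

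Of 13 tested target genes of STAT3, 2 were higher by the unadjusted p-value. They were the acute-phase gene Serpina3n at a log2 fold change of 4.15 (unadjusted p = 0.0232, edgeR) and the transcription factor gene Cebpb at 0.93 (unadjusted p = 0.0454, edgeR), and 0 genes were lower. Serpina3n had 572 counts in anti-B and 13 to 17 elsewhere. Their median ratio was -0.10 within pair A but 1.35 within pair B, and the fitted median was 0.47 with all libraries and -0.04 when anti-B was left out. Gfap, the intermediate filament of reactive glia, had 1496 counts in NC-A, 720 in anti-A, 631 in NC-B and 3764 in anti-B. Gfap, named after its values were seen, was high in the libraries in which Socs3 was high, and low in the others. The other targets were not alike in this. Fgf2 was also higher in NC-A and anti-B, with 18 counts in NC-A, 2 in anti-A, 5 in NC-B and 69 in anti-B. Cebpd was high in anti-B only, with 53, 46, 47 and 195.

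**Figure D3:**
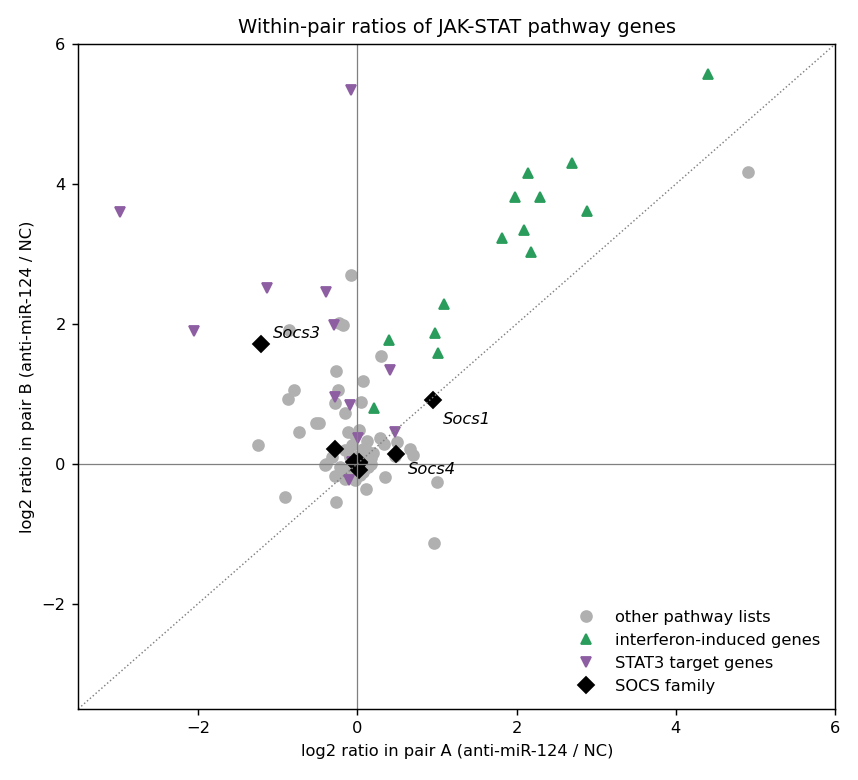
log2 ratio of the anti-miR-124 to the NC library in pair A (horizontal axis) and in pair B (vertical axis) for the reported tested genes of the pathway lists, with the dotted line marking equal ratios. The interferon-induced genes lie in the upper right, several STAT3 target genes lie with Socs3 (-1.21 and 1.71) in the upper left, Socs1 (0.95 and 0.91) lies on the line, Socs4 lies at 0.48 and 0.14, Cish at -0.28 and 0.21, and Socs2, Socs5, Socs6 and Socs7 within 0.081 of 0.

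Microglia markers were also high in anti-B, where Socs3 was highest. Their median log2 ratio over 16 tested markers was 1.80 in pair B and -0.23 in pair A, their summed level was 150 CPM in NC-A, 139 in anti-A, 115 in NC-B and 317 in anti-B, and 0 of the 17 markers was at 0 in any library. NC-A, the other library with high Socs3, held the lens transcripts. Neutrophil markers, from cells that express Socs3 strongly, summed to 0.371 to 0.621 CPM, with Ly6g, Mpo and Elane at 0 in every library. Of these 7 markers, 0 passed the filter on low counts. In whole retina, more cells of a type and more RNA per cell cannot be told apart. The part of microglia, of neutrophils or of the lens material in the Socs3 values was not tested.

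**Figure D4:**
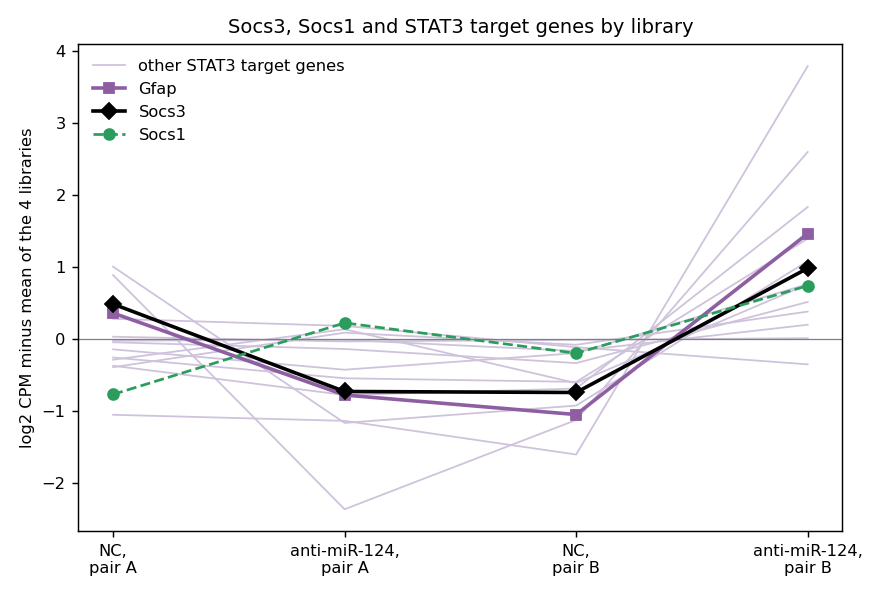
log2 CPM minus the mean of the 4 libraries (vertical axis) in each library (horizontal axis) for Socs3, Socs1 and the 13 tested STAT3 target genes, Gfap drawn darker; the lines only join the values of a gene. Socs3 and Gfap share 2 high and 2 low libraries, but Gfap was named after its values were seen and several other targets are high in anti-B only. Socs1 lies higher in anti-A than in NC-A and in anti-B than in NC-B.

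The 5 genes whose centred log2 CPM values over the 4 libraries lay closest to those of Socs3 were Thpo, Veph1, Tnxb, an unnamed Ensembl gene and Pcolce, at Euclidean distances of 0.220 to 0.276 on the log2 scale. Pcolce, an enhancer of procollagen processing, was the most abundant, with 124 counts in NC-A, 45 in anti-A, 59 in NC-B and 201 in anti-B. Thpo had only 15 counts in NC-A, 8 in anti-A, 7 in NC-B and 25 in anti-B, and counting error is large at such values. With 4 libraries the likeness is a description.

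Of 6 tested genes of the SOCS box ligase, 0 passed the unadjusted threshold. Cul5 had a log2 fold change of -0.06 (95% interval -0.23 to 0.11), Tceb1, the older symbol of elongin C used in the table, had -0.18 (unadjusted p = 0.0771, edgeR) with negative ratios in both pairs, and Rnf7 had -0.12. Of 12 other brakes, 1 was higher. Usp18, which removes ISG15 and blocks the interferon receptor chain IFNAR2, had 3 counts in NC-A, 111 in anti-A, 13 in NC-B and 253 in anti-B, with a log2 fold change of 4.40 (standard error 0.59, unadjusted p = 0.000196, adjusted p = 0.487, edgeR). The phosphatase gene Ptpn1 had 0.16 (unadjusted p = 0.0567, edgeR), higher in both pairs. Among growth factor receptors and insulin substrates, some of which SOCS6 and SOCS7 are known to bind, 1 of 10 was higher. It was Csf1r (0.66, unadjusted p = 0.0322, edgeR), which is also a microglia marker. Csf1r had a ratio of 0.07 within pair A and of 1.18 within pair B. Irs2 had 0.28 (unadjusted p = 0.0556, edgeR), with its lowest value, like that of Socs4, in NC-A.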

How the data were processed

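Read counts per gene, not normalized, were deposited by the authors for 4 libraries, with gene lengths and positions. The 4 columns of RPKM values in the table were not used. TPM was computed here from the counts and the deposited lengths. The submitters' processing notes name HISAT2 and mm9. However, of 36837 symbols matched to RefSeq GRCm38.p6, 99.8% overlapped it in position, and positions are given in that build. The counting tool is not given in the sources used here, and the library kit was directional. Columns were assigned to groups by the eye they name. Which pair is replicate 1 is not stated.

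Differences were tested with edgeR 4.0.16 (R 4.3.3, quasi-likelihood, TMM, filterByExpr, no covariate, two-sided, Benjamini-Hochberg over 17766 genes). Standard errors are the log2 fold change over the root of F. Ratios within pairs used CPM with 0.5 counts added, and fold values within pairs used CPM. DESeq2 1.42.0 was an alternative. On simulated counts for this comparison over 17830 genes, 98% of 100 genes with a 4-fold change and 66% of 100 with a 2-fold change were recovered, with 3 wrong calls among 167. The simulation gave every gene the common dispersion, and 0 genes were called in the real libraries, so these shares do not give the sensitivity for the real data. The members and lists were chosen with earlier results of these data known. Named genes were the 8 members, in each of 12 lists the 2 genes with the smallest p-value, Stat3, Il6st, Jak1, Jak2 and Cul5, and the 5 genes closest to Socs3. The values of 1 further named gene are not reported here. Others (Il6, Lif, Cntf, Gfap, Fgf2, Cebpd, Irf1, Irf9, Isg15) were chosen after their values were seen. No libraries were duplicates (chi-square per degree of freedom at least 3.69). Python 3.11.15, numpy 2.4.6, pandas 2.3.3 and scipy 1.17.1 were used for the other steps.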

Additional observations from a re-analysis of the deposited data

How the results depend on the processing

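The direction of all 8 members, and the side of the threshold by the adjusted p-value, held under the 8 alternatives with all libraries. Those were DESeq2 size factors, upper quartile, total counts, no filter, a mean of at least 10 counts, DESeq2's Wald test, the replicate block and the lens genes left out. With 1 library left out, the lone library of its group being assumed to vary like the others, 10 of 32 values changed direction, and the log2 fold changes ran from -0.18 to 0.11 for Cish, 0.67 to 1.27 for Socs1, -0.039 to 0.077 for Socs2, -0.71 to 1.11 for Socs3, 0.19 to 0.44 for Socs4, -0.094 to 0.076 for Socs5, -0.12 to 0.067 for Socs6 and 0.01 to 0.04 for Socs7. The lowest adjusted p-value of a member over all these settings was 0.413.

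Over all genes, adjusted p-values under 0.05 numbered 0, with 379 genes without the filter, 36 with DESeq2's Wald test and 0 to 256 with a library left out. Unadjusted p-values under 0.05 numbered 694, with 1577 genes without the filter, 308 with the Wald test and 333 to 1893 with a library left out. Over the pathway lists the adjusted counts were 0, 25 without the filter, 12 with the Wald test and 0 to 25 with a library left out, and the unadjusted counts 22, 41 without the filter, and 14 to 45 with a library left out. The causes were not tested. With the replicate block the counts over all genes were 0 and 376, and the unadjusted p-value of Socs4 was 0.0684. It was 0.100 with the Wald test and 0.0131 without the filter (edgeR). That of Socs1 was 0.0605, or 0.0388 without the filter and 0.0673 with the replicate block (edgeR). It was 0.220 with the Wald test. The shared number is not stated to mark the same animals, and the deviations of same-numbered libraries had a correlation of -0.16 over genes. With the numbers crossed, an alternative added after seeing the data, the counts were 160 and 1306. By TMM, 48.7% of the 8304 genes with the same direction in both pairs were higher, and by TPM 68.6% of 8374. The median log2 ratio of all tested genes in pair A was -0.01 by TMM and 0.098 by TPM, and the ratio of Socs5 in pair A went from -0.04 to 0.064.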

Other observations

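Other proteins with a SOCS box, which share the ligase partners but lack the SH2 domain, were examined as a further list. Of 26 genes of the Asb, Spsb, Wsb and Rab40 families, 17 passed the filter, 1 was higher and 0 were lower by the unadjusted p-value of edgeR's test, and the median log2 fold change was 0.009. The 1 gene was Asb6, with 228 counts in NC-A, 304 in anti-A, 296 in NC-B and 376 in anti-B, and a log2 fold change of 0.30 (standard error 0.13, unadjusted p = 0.0477, adjusted p = 0.989, edgeR). Rab40c had 0.18 (unadjusted p = 0.0580, edgeR) and was higher in both pairs. The summed level of the list was 536 and 537 CPM in the NC libraries and 517 and 545 CPM in the anti-miR-124 libraries, so the groups overlapped.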
